A study of Solanum lycopersicum with 24 samples.

Results

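The 200 transcripts described here had the highest levels after 5 days of cold relative to plants without those 5 days. They were measured in total RNA of tomato (Solanum lycopersicum) leaves. They were chosen by a score from the deposited total RNA values. The score divides the lower of the Hardening and Combo mean TPM by the higher of the Control and Stress mean TPM, after 1 was added to each mean. TPM (transcripts scaled by length to a fixed total in each library) is a relative level, so a transcript is measured as its part of all transcripts sequenced. A member needed a mean of at least 10 TPM in Hardening and in Combo, a level met by 8967 of the 37476 NM and XM transcripts in a table of 45845. LE25, AKR4B and CHI3, which also scored high, were left out by the rule and are not members.

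The 4 conditions were set in plants of selection line YaLF, 28 days old with 5 to 7 true leaves and grown at 25 °C by the sample labels. Combo plants were hardened for 5 days at 6 °C and then placed at 0 °C for 2 h, Hardening plants received only the 5 days, Stress plants only the 2 h, and Control plants neither. The study's methods give a slightly lower temperature for hardening than the labels do. From each condition, total RNA, RNA of polysomes (mRNA carrying several ribosomes) and RNA of monosomes (mRNA carrying a single ribosome) were sequenced, with 2 libraries each and 24 in all. All were made from mRNA with a poly(A) tail. Since collection of Combo and Stress leaves followed that of Hardening and Control leaves by 2 h, the effects of 0 °C and of the time of day cannot be told apart. The 2 libraries of a group are called technical repeats in the study's methods and biological replicates in the column names, and no source used here says whether the fractions came from the same leaves. The p-values therefore measure only the spread between these libraries.

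Plants that meet low but not freezing temperatures for days harden, that is, they gain tolerance to a later and colder exposure. In this process CBF transcription factors act within hours, and abscisic acid, a hormone of water deficit, adds a slower branch. The genes behind them encode dehydrins and other LEA proteins that protect membranes and proteins from drying, enzymes that remove peroxides, chaperones, ion transporters and many regulators. Tomato is a chilling-sensitive plant of warm climates and is used to study which parts of this response it has kept.

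The fraction libraries require a remark before any result. Among the transcripts that are not members, 19718 with a mean of at least 1 TPM were used to ask on which side of the cold response in total RNA each fraction library lay. Its deviation from the mean of its fraction was correlated with the difference between the hardened and the other conditions in total RNA, as a description across transcripts that are not independent replicates. The correlation was 0.755 and 0.734 in the Combo polysome libraries and 0.597 and 0.571 in those labelled Stress. It was -0.776 and -0.777 in the polysome libraries labelled Hardening and -0.646 in both of Control. Monosome libraries gave 0.664 and 0.650 for Combo, 0.621 and 0.555 for the label Stress, -0.619 and -0.652 for the label Hardening, and -0.524 and -0.541 for Control. Fraction libraries labelled Hardening thus lay with Control, and those labelled Stress with Combo, which goes against the total RNA of the same labels. Labels were kept as given, and the fraction results rest on Combo and Control, which lay as in total RNA.

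No depth can be read from TPM, so no counting interval is given. Between 20551 and 21698 transcripts reached 1 TPM in a total RNA library, 13363 to 18415 in a polysome library and 12922 to 18270 in a monosome library. The 10 most abundant transcripts held 6.67 to 15.9% of a total RNA library, 11.0 to 60.0% of a polysome library and 10.3 to 68.9% of a monosome library. As markers of the tissue, 8 transcripts for Rubisco small subunits and other photosynthetic proteins summed to 21873 TPM in Combo, 19538 in Hardening, 86695 in Stress and 94786 in Control. The 8 transcripts of the fruit list summed to 597, 654, 67.7 and 86.3 TPM in the same order, with PG2, a fruit polygalacturonase, at 0 throughout. One of them, MSRA, is a member and carried most of that sum in the hardened conditions. Pollen, root and trichome markers stayed under 5 TPM in sum in every condition. In leaf RNA, a change in the share of a cell type and a change in RNA per cell cannot be told apart.

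In total RNA, the 200 members together held 4.88 and 5.02% of all TPM in Combo and 4.08 and 4.33% in Hardening, against 0.361 and 0.367% in Stress and 0.336 and 0.331% in Control. These values chose the members and are given as a description. The median member stood at 76.6 TPM in Combo, 62.6 in Hardening, 3.24 in Stress and 3.75 in Control. Scores ran from 6.24 to 173, and 85 members averaged at least 100 TPM over the hardened libraries, while 39 stayed under 1 TPM in both Stress and Control means. The median log2 difference on scaled values was 3.33 for Combo vs Control and 3.18 for Hardening vs Control. At the lower edge of the score, LOC101266868, LOC101248267 and LOC101261811 were the last inside with 6.27, 6.27 and 6.24. LOC101245487, LOC101267273 and LOC101255096 were next outside with 6.23, 6.21 and 6.21, so the limit does not mark a gap.

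**Figure D1:**
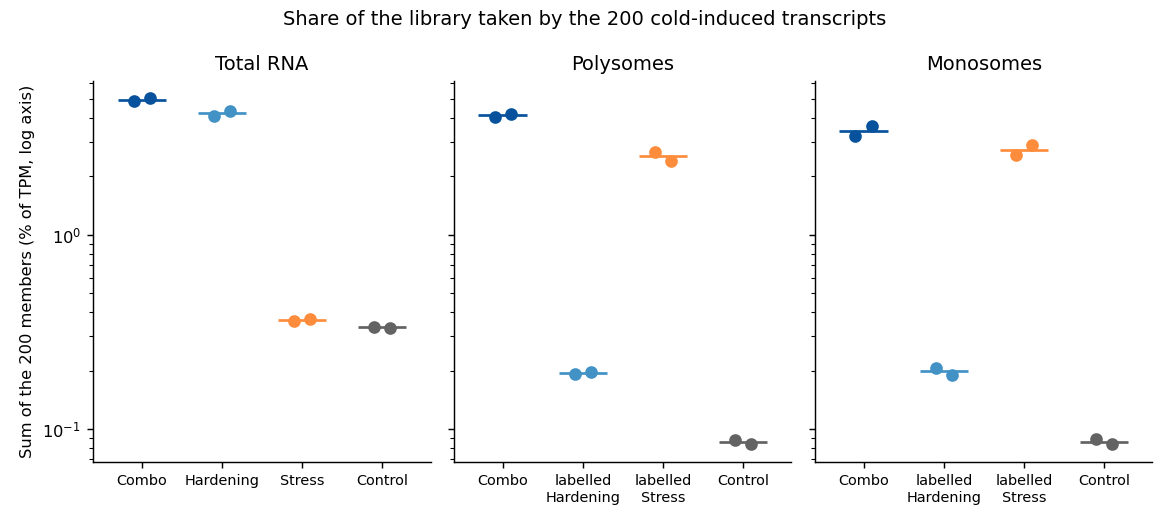
Sum of the 200 members as a percentage of all TPM in each library (log axis), in total RNA, polysomes and monosomes; points are the 2 libraries of a condition as labelled and lines are their means. In total RNA the members hold 4.08 to 5.02% in Combo and Hardening against at most 0.367% in Stress and Control, and in both fractions the high pairs are Combo and the libraries labelled Stress.

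The symbols of a names table cover few of these transcripts. Of the 200 members, 184 matched 182 genes and 16 matched none, and 35 members of 34 genes had a symbol other than a LOC number. LOC genes are given without a role. Symbol-named members are treated below by role, although their choice as examples was made after their values were seen. The heat map of these 35 transcripts shows each of them high in the 4 hardened total RNA libraries.

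**Figure D2:**
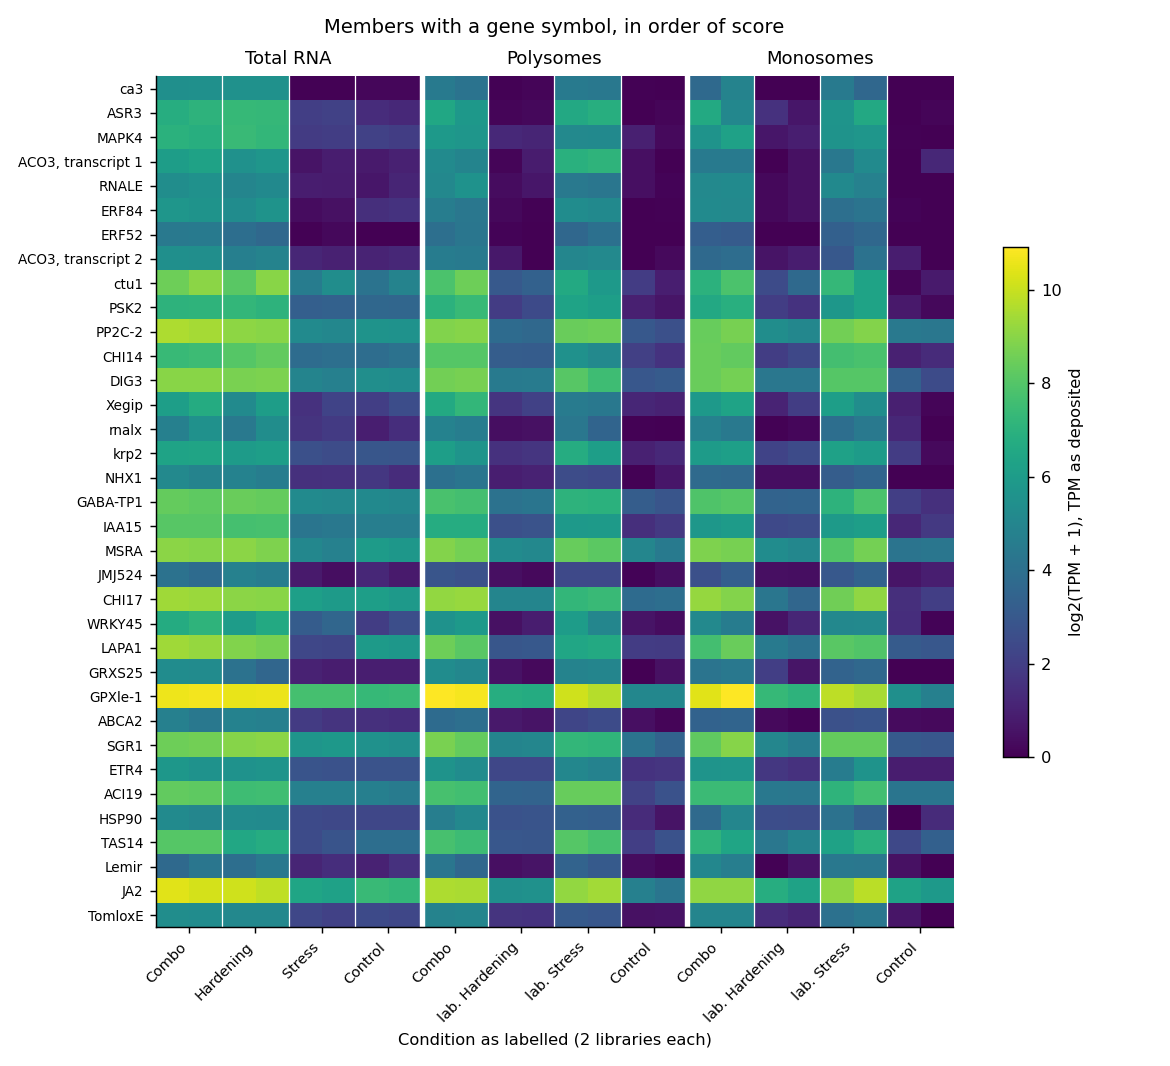
Level of the 35 members with a gene symbol in all 24 libraries as log2(TPM + 1) of the deposited values, with conditions as labelled (2 libraries each) and members in order of score from the top. Combo and Hardening are high in total RNA, whereas in polysomes and monosomes the high columns are Combo and the libraries labelled Stress; GPXle-1 and JA2 stand highest.

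The members with the highest scores were nearly all LOC genes. LOC101248880 led with a score of 173 and had 238 and 302 TPM in Combo and 187 and 247 in Hardening, against 0.0519 and 0.118 in Stress and 0.321 and 0.193 in Control. LOC101248072 stood at 1089 and 990.3 TPM in Combo and 970.4 and 873 in Hardening, but also at 8.96 and 8.55 in Stress and 8.09 and 7.43 in Control. The next by score were LOC101265639, LOC101246667, LOC101261512, LOC101262567, LOC101264804, LOC101254720 and LOC101247814, with scores of 41.4 to 93.7, and ca3 with 38.4. The most abundant member was LOC101055583, with 3674 and 4229 TPM in Combo and 4124 and 5084 in Hardening, against 217 and 259.8 in Stress and 118 and 148 in Control. LOC101252571, GPXle-1, LOC101265917 and JA2 followed, and none of these 5 was among the 10 highest scores.

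Members tied to water deficit and abscisic acid included TAS14, ASR3 and PP2C-2. TAS14 is a dehydrin known from salt-stressed tomato, and had 262 and 263 TPM in Combo and 93.1 and 107 in Hardening, against 4.60 and 6.05 in Stress and 14.3 and 14.6 in Control. ASR3, of the family induced by abscisic acid, stress and ripening, had 113 and 133 TPM in Combo and 157 and 155 in Hardening, against 3.06 and 3.27 in Stress and 1.65 and 1.36 in Control. PP2C-2 is a type 2C protein phosphatase, a family with members that hold back abscisic acid signalling in Arabidopsis. Its levels were 769.7 and 707 TPM in Combo and 536 and 513 in Hardening, against 36.2 and 32.4 in Stress and 48.1 and 47.1 in Control. In ASR3 the Hardening libraries were the highest, in TAS14 and PP2C-2 the Combo libraries.

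Regulators were also found among the symbols. JA2, a NAC transcription factor, had 1395 and 1186 TPM in Combo and 1117 and 951 in Hardening, against 84.6 and 75.1 in Stress and 166 and 149 in Control. ERF52, an ethylene response factor, was listed at 0 in both Control libraries and had 0.0370 and 0.169 TPM in Stress, below 20.5 and 21.9 in Combo and 14.5 and 11.9 in Hardening. ERF84 of the same family had 52.7 and 48.5 TPM in Combo and 38.8 and 47.9 in Hardening, against 0.272 and 0.386 in Stress and 1.79 and 2.05 in Control. MAPK4, a mitogen-activated protein kinase, reached 126 and 116 TPM in Combo and 167 and 151 in Hardening, against 2.68 and 2.92 in Stress and 3.29 and 2.96 in Control. WRKY45, IAA15 (an Aux/IAA repressor of auxin response), JMJ524 (a jumonji-domain protein) and krp2 (an inhibitor of cyclin-dependent kinases) belong here too, with Combo libraries between 13.2 TPM in JMJ524 and 271 in IAA15. The ethylene receptor ETR4 and PSK2, a phytosulfokine precursor, completed the group. Outside it were 2 transcripts of ACO3, a dioxygenase gene that the names table also lists as E8/Sl27DOX.

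Members that handle peroxides, damaged proteins and toxic products formed another set. GPXle-1, a phospholipid hydroperoxide glutathione peroxidase, had 1605 and 1708 TPM in Combo and 1507 and 1577 in Hardening, against 205 and 205 in Stress and 161 and 170.0 in Control. MSRA, which repairs oxidised methionine, had 517 and 495 TPM in Combo and 518 and 451 in Hardening, against 32.2 and 27.0 in Stress and 62.7 and 54.4 in Control. The glutathione transferase ctu1 differed more between its libraries, with 365 and 528 TPM in Combo and 283 and 503 in Hardening, against 23.2 and 40.1 in Stress and 17.1 and 28.6 in Control. GRXS25, a glutaredoxin, and the chaperone HSP90 stayed under 40 TPM in every total RNA library. NHX1, an antiporter of sodium and protons, ABCA2, an ABC transporter, and GABA-TP1, a transaminase of the GABA shunt, were the members with a role in transport or amino acid turnover.

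Enzymes and inhibitors best known from wounding and defence were members as well. LAPA1, a leucine aminopeptidase of the wound response, had 657 and 580.2 TPM in Combo and 463 and 417 in Hardening, against 3.99 and 3.87 in Stress and 60.6 and 54.0 in Control. The chitinase CHI17 had 660.0 and 615 TPM in Combo and 522 and 510.3 in Hardening, against 70.7 and 61.7 in Stress and 69.7 and 57.0 in Control. CHI14, another chitinase, had 162 and 178 TPM in Combo and 263 and 314 in Hardening, against 13.4 and 14.9 in Stress and 14.0 and 16.6 in Control. RNALE and rnalx, S-like ribonucleases, Xegip, which inhibits a xyloglucan-cutting enzyme, Lemir, a miraculin-like protein, and the lipoxygenase TomloxE had lower levels, from 12.3 TPM in a Combo library of Lemir to 106 in one of Xegip. SGR1, a protein needed for chlorophyll breakdown, had 369 and 391 TPM in Combo and 489.8 and 514 in Hardening, against 50.6 and 56.4 in Stress and 45.0 and 41.2 in Control. DIG3 and ACI19 were the remaining members with a symbol.

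**Figure D3:**
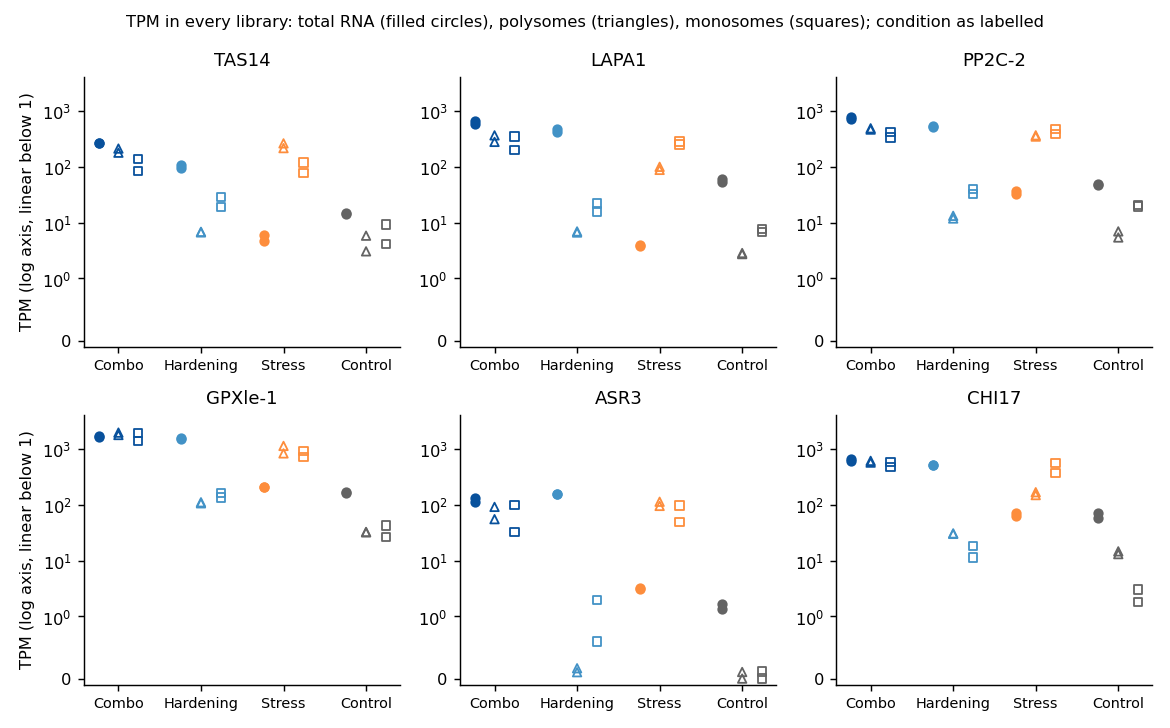
TPM of TAS14, LAPA1, PP2C-2, GPXle-1, ASR3 and CHI17 in every library as deposited (log axis, linear below 1), with conditions as labelled; filled circles are total RNA, triangles polysomes and squares monosomes. LAPA1 in total RNA has 3.87 and 3.99 TPM in Stress, below its Control libraries, and in the fractions the libraries labelled Stress lie above Control for all 6.

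Some members lie beside each other in the genome. Among the 182 genes, 11 formed 6 pairs of neighbouring protein-coding genes in the names table of assembly SLM_r2.1. How often other genes of such levels neighbour each other was not counted, so nothing is read from the number of pairs. LOC101246965, LOC101246667 and LOC101247465 lay in a row, LOC101268052 lay next to TAS14, LOC101247814 next to ASR3, LOC101246594 next to LOC104644281, and rnalx next to RNALE. RNALE and rnalx encode related enzymes, so kallisto could have assigned reads of one to the other, and the same holds for the 2 transcripts of ACO3. Curated NM records made up 21.5% of the members, against 15.1% of the 8967 transcripts with the level the rule asks for.

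The first question put to libraries that the rule did not use was whether the members were also higher in polysomes of Combo leaves. All were higher there. The 200 members held 4.03 and 4.19% of the TPM in Combo polysomes, against 0.0876 and 0.0842% in Control polysomes. With the 10 most abundant transcripts of each library set aside, the shares were 4.53 and 4.80% in Combo and 0.198 and 0.211% in Control. All 200 had both Combo libraries above both Control libraries after scaling, as had 43.6% of all transcripts tested. Tested with limma on log2(scaled TPM + 1) and adjusted over 17770 transcripts, 196 members rose in Combo and 4 did not pass, where 22.1% of all transcripts tested were called higher. A call required a log2 change over 1 with an adjusted p under 0.05. The median change of the members was 3.60 and their range 1.00 to 7.34, beside a median of 0.20 over all transcripts tested. In 22 members both Control polysome libraries were listed at 0. Over the other 178 the median was 3.66 and 176 were called. Only 102 members averaged at least 1 scaled TPM in Control polysomes, and 101 of these were called, with a median of 3.70. The rest passed the filter on the mean of all polysome libraries only through conditions in which they were higher. On TPM as deposited, without scaling, 199 members were called, but so were 61.0% of all transcripts, with a median change of 1.44. The 10 most abundant transcripts held 11.0 and 12.5% of the Combo polysome libraries and 55.7 and 60.0% of the Control ones, and the part of this difference in the result beyond the scaling was not tested.

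**Figure D4:**
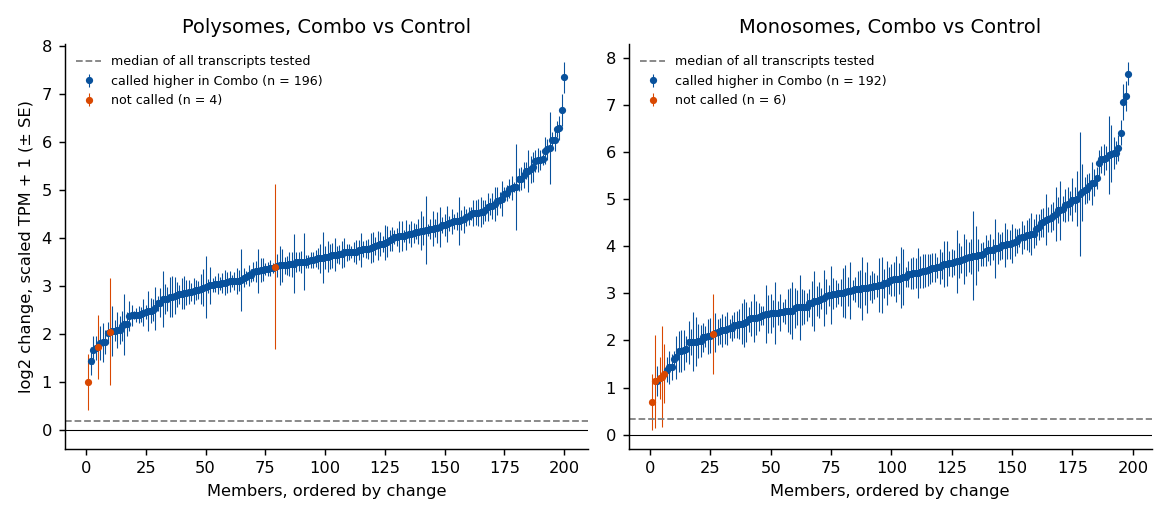
Change of each member between Combo and Control in polysomes (200 members) and monosomes (198 tested), as log2 of scaled TPM + 1 with standard errors, ordered by size; the dashed line is the median of all transcripts tested. Every member lies above 0, with 196 called in polysomes and 192 in monosomes.

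Among the members with a role in water deficit, TAS14 had 211 and 178 TPM in Combo polysomes, against 3.06 and 5.83 in Control polysomes, a log2 change of 3.70 (standard error 0.30, limma adjusted p = 0.000131). PP2C-2 had 461 and 486 TPM in Combo polysomes, against 6.96 and 5.41 in Control, and rose by 4.51 (standard error 0.14, limma adjusted p = 5.47e-06). ASR3, with 91.3 and 55.1 TPM in Combo and 0 and 0.106 in Control, rose by 5.31 (standard error 0.27, limma adjusted p = 2.51e-05). With so low a level in Control, it passed the filter only through conditions in which it was higher. Other genes of its family did not rise with it: Asr4 was called lower in Combo polysomes (log2 change -3.41), and ASR1 and Asr2 were not called. Of the regulators, JA2 had 763 and 750.0 TPM in Combo polysomes, against 26.1 and 18.3 in Control (log2 change 3.43, standard error 0.18, limma adjusted p = 2.69e-05). PSK2, the peptide precursor, had 128 and 163 TPM in Combo and 0.967 and 0.523 in Control (log2 change 5.22). The changes of MAPK4, ERF84, WRKY45, IAA15 and krp2 were 3.46 to 4.22, and JMJ524 had the smallest called change among the regulators with 1.72 (standard error 0.26, limma adjusted p = 0.00173).

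GPXle-1 was among the most abundant members in polysomes, with 1947 and 1764 TPM in Combo and 32.0 and 32.5 in Control, a log2 change of 4.17 (standard error 0.13, limma adjusted p = 5.28e-06). In the wound and defence group, LAPA1 had 363 and 278 TPM in Combo polysomes, against 2.85 and 2.73 in Control (log2 change 4.94, standard error 0.17, limma adjusted p = 7.22e-06). CHI14 had 266 and 266 TPM in Combo and 3.17 and 2.03 in Control (log2 change 4.80, standard error 0.17, limma adjusted p = 7.42e-06), and CHI17 566 and 608 TPM in Combo and 13.0 and 14.6 in Control (log2 change 3.71, standard error 0.16, limma adjusted p = 1.69e-05). HSP90 rose by 2.73 (standard error 0.32, limma adjusted p = 0.0006). Of the LOC genes, LOC101248072 had the largest change, with 731 and 507 TPM in Combo and 0.447 and 0.928 in Control (log2 change 7.34, standard error 0.31, limma adjusted p = 1.55e-05), followed by LOC101247814 with 6.66 and LOC101265833 with 6.29. All 35 members with a symbol were called, JMJ524 with the smallest and ctu1, the glutathione transferase, with the largest change (5.41). The other leading scores, LOC101248880, LOC101265639, LOC101246667, LOC101261512, LOC101262567 and LOC101254720, rose by 4.27 to 6.27.

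The 4 members that did not pass were LOC101244518, LOC101248267 and XM_026032526.1 and XM_026032528.1, which have no symbol. LOC101248267 had 4.15 and 6.48 TPM in Combo polysomes and was listed at 0 in both Control libraries, although it reached 68.0 and 66.2 TPM in Combo total RNA. LOC101244518 had 70.0 and 84.3 TPM in Combo polysomes and 10.6 and 5.65e-09 in Control, with a log2 change of 3.41 (standard error 1.71, limma adjusted p = 0.139). Its Control libraries stood far apart from each other. XM_026032528.1 had 2.18 and 4.32 TPM in Combo and 0.608 and 0 in Control, the smallest change of all (log2 change 1.00, standard error 0.58, limma adjusted p = 0.194).

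Monosomes gave a similar picture with more spread. The members held 3.23 and 3.63% of the TPM in Combo monosomes, against 0.0893 and 0.0836% in Control monosomes. Of 198 members tested, 192 rose in Combo, where 24.2% of all 17387 transcripts tested were called higher, and no member had a change below 0. The median was 3.28 with a range of 0.69 to 7.67, beside 0.34 over all transcripts, and in 196 of the 200 members both Combo libraries lay above both Control libraries, as they did in 44.6% of all transcripts tested. Both Control monosome libraries were listed at 0 for 33 members, and over the other 165 tested the median was 3.30 with 161 called. Only 103 members averaged at least 1 scaled TPM in Control monosomes, and 101 of these were called, with a median of 3.07. With the 10 most abundant transcripts set aside, the members held 3.93 and 4.04% in Combo and 0.251 and 0.269% in Control. On unscaled TPM 196 members were called, beside 62.0% of all transcripts. The 6 that did not pass were LOC101252822, LOC101250739, LOC101263192, LOC101259487, LOC101248267 and XM_026032528.1. LOC101249643 and LOC101261911 (one of its 2 transcripts) were too low to be tested.

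LOC101244562 changed most, with 705 and 816 TPM in Combo monosomes and 0.698 and 0.631 in Control (log2 change 7.67, standard error 0.24, limma adjusted p = 7.09e-05). LOC101248072 had 420.2 and 474 TPM in Combo and 0.804 and 0.198 in Control (log2 change 7.20, standard error 0.31, limma adjusted p = 7.09e-05). XM_004235987.4, without a symbol, had 369.9 and 280.3 TPM in Combo and 0.462 and 0.0853 in Control (log2 change 7.07, standard error 0.38, limma adjusted p = 0.000117). LOC101248072 and XM_004235987.4 averaged under 1 scaled TPM in Control monosomes, so they passed the filter only through conditions in which they were higher. Both chitinases had larger changes here than in polysomes, a difference that was not tested. CHI14 had 344 and 315 TPM in Combo monosomes and 1.01 and 1.57 in Control (log2 change 5.88, standard error 0.26, limma adjusted p = 7.09e-05). CHI17 had 580.0 and 475 TPM in Combo and 1.82 and 3.06 in Control (log2 change 5.86, standard error 0.33, limma adjusted p = 0.000134).

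For the other members described above, the monosome changes lay on both sides of the members' median of 3.28. PSK2, MAPK4, ERF84 and krp2 rose by 3.80 to 5.23. JA2 had 557 and 550.0 TPM in Combo monosomes and 78.0 and 58.3 in Control (log2 change 1.38, standard error 0.26, limma adjusted p = 0.00607). PP2C-2 had 331 and 414 TPM in Combo and 20.6 and 19.3 in Control (log2 change 2.53, standard error 0.20, limma adjusted p = 0.000294). TAS14 had 138 and 84.5 TPM in Combo and 4.18 and 9.28 in Control (log2 change 2.36, standard error 0.44, limma adjusted p = 0.00558), and its libraries did not overlap. HSP90, with 12.8 and 31.2 TPM in Combo and 0.0237 and 1.51 in Control, rose by 2.71 (standard error 0.69, limma adjusted p = 0.0189). It lost the call in 4 of 9 alternatives, among them those without Combo replicate 2 and without Control replicate 1, where the change was 1.76. JMJ524 rose by 1.14 (standard error 0.32, limma adjusted p = 0.0276) and lost the call in 5 of 9, among them those without either Combo replicate and without Control replicate 1, with 0.85 as the lowest change. WRKY45 lost it without Combo replicate 1, and the ACO3 transcripts lost it without 1 of the Combo replicates.

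Across 198 members, the Combo vs Control change in polysomes and that in monosomes had a Pearson r of 0.691 and a Spearman rho of 0.634. Between polysomes and total RNA the values were 0.621 and 0.550 over 200 members, and between monosomes and total RNA 0.419 and 0.357 over 198. These describe members that share libraries and are not independent replicates. The polysome change exceeded the monosome change in 118 of 198 members, with differences from -2.52 in XM_004235987.4 to 2.86 in LOC101265833.

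By label, the other fraction libraries gave opposite counts to those of total RNA. In polysomes labelled Stress the members held 2.67 and 2.40% of the TPM, and 196 of 200 were called above Control with a median log2 change of 3.57, where 21.2% of all transcripts were called. In polysomes labelled Hardening they held 0.192 and 0.197%, and 5 were called with a median of 0.19, where 3.55% of all transcripts were called. The 5 were LOC543825, LOC101261578, LOC101251571, LOC101268293 and XM_019215370.2, and none has a symbol with a known role. In monosomes the label Stress gave 193 of 198 called higher (background 22.7%) and the label Hardening 20 higher (background 8.14%) and 1 lower, LOC101255513 (background 2.38%). With only the 2 groups compared in the fit, where 102 members could be tested in polysomes and 100 in monosomes, none was called for the label Hardening. In the main fit, 102 members averaged at least 1 scaled TPM in Control polysomes. Of these, 101 were called higher for the label Stress and 2 for the label Hardening. In monosomes the same numbers were 103, 101 and 9. The rest passed the filter only through conditions in which they were higher. All these contrasts share the Control libraries of their fraction. CHI17, GPXle-1, SGR1, GABA-TP1 and ctu1 were the symbols among the 20, with changes of 1.27 to 2.65. TAS14 showed the pattern of labels, with 261 and 215 TPM in polysomes labelled Stress and 6.84 and 6.67 in those labelled Hardening, whereas total RNA gave 4.60 and 6.05 in Stress and 93.1 and 107 in Hardening.

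Polysomes and monosomes of the same condition were then compared on scaled TPM. A difference gives the relative level of a transcript in polysomes against monosomes, set beside that of most transcripts. The RNA amount of a fraction is not held in TPM, so how a transcript divides between many ribosomes and a single one cannot be read from it. In Combo, 2 of 198 members were higher in polysomes, where 0.414% of all 17647 transcripts were called, and the median difference was 0.25 against -0.01 over all transcripts. LOC104645999 had 1047 and 1299 TPM in Combo polysomes, against 308 and 411 in Combo monosomes (log2 difference 1.70, standard error 0.26, limma adjusted p = 0.0177). LOC101254720 had 34.8 and 32.1 TPM in polysomes and 13.9 and 10.4 in monosomes (log2 difference 1.35, standard error 0.21, limma adjusted p = 0.021). Without any 1 of the 4 Combo libraries neither was called, and neither was called with only the 2 groups in the fit. TAS14, with a difference of 0.82 (adjusted p = 0.734), and GPXle-1, with 0.18 (adjusted p = 1), did not pass limma's test.

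In Control leaves, where most members were low, 8 of 198 were higher in polysomes (background 10.6%) and 20 were lower (background 6.02%). With only the 2 Control groups in the fit, 82 members could be tested and these counts were 1 and 2. PP2C-2 had 6.96 and 5.41 TPM in Control polysomes and 20.6 and 19.3 in Control monosomes (log2 difference -1.68, standard error 0.16, limma adjusted p = 8.61e-05). JA2 had 26.1 and 18.3 TPM in Control polysomes and 78.0 and 58.3 in Control monosomes (log2 difference -1.67, standard error 0.23, limma adjusted p = 0.000645). CHI17 lay the other way, with 13.0 and 14.6 TPM in polysomes and 1.82 and 3.06 in monosomes (log2 difference 2.25, standard error 0.27, limma adjusted p = 0.000332). GABA-TP1 and LOC101244562 were also higher in Control polysomes, and LAPA1, ACI19 and LOC101265833 lower. In Combo the differences of PP2C-2, JA2 and CHI17 were 0.34, 0.44 and 0.15, and none passed. Whether these differences changed between Control and Combo was not tested.

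Set against total RNA, the members of Combo polysomes had a median log2 ratio of -0.16, beside 0.04 over all 20145 transcripts. In Control it was -0.54, beside -0.28. The total RNA side chose the members, so these ratios are a description. In Combo they ran from -3.10 in LOC101248267 to 2.58 in LOC101253428, both named after their values were seen. Among symbols, CHI14 had the highest ratio in Combo with 0.96, against -0.94 in Control.

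Total RNA also holds values for 2 h at 0 °C, with and without hardening. All 8 total RNA libraries entered the score that chose the members, through the lower of the Combo and Hardening means and the higher of the Stress and Control means. Their differences are therefore a description of the members, with no test, and nothing is read from the background shares given beside the counts. A difference is counted below where it passed the thresholds of a call in the fit over all transcripts. In this sense 12 members were higher in Combo than in Hardening and 1 was lower, where 1.74% of all 22013 transcripts were higher and 2.36% lower. The median difference of the members was 0.18, beside -0.02 over all transcripts. LOC104645999 differed most, with 1537 and 1739 TPM in Combo and 418 and 530.3 in Hardening (log2 difference 1.80, standard error 0.18). TAS14 had 262 and 263 TPM in Combo and 93.1 and 107 in Hardening (log2 difference 1.39, standard error 0.12). GRXS25, the glutaredoxin, had 39.0 and 37.2 TPM in Combo and 16.2 and 11.3 in Hardening (log2 difference 1.42, standard error 0.18). LOC101252884 and LOC100750252 had differences of 1.66 and 1.61, and LOC101254720 of 1.30. The lower member was LOC101243730, with 28.6 and 27.3 TPM in Combo and 61.0 and 57.1 in Hardening (log2 difference -1.04, standard error 0.14). Without Hardening replicate 1 its difference was -0.98, under the threshold. CHI14 (-0.75), ASR3 (-0.34) and PP2C-2 (0.50) stayed within 1 on the log2 scale.

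In plants that had not been hardened, 4 of 200 members were higher and 12 lower in Stress than in Control by the same thresholds, where 2.38% of all transcripts were higher and 1.94% lower. The median difference was -0.02 beside 0.00 over all transcripts. LAPA1 was the lowest relative to Control, with 3.99 and 3.87 TPM in Stress, against 60.6 and 54.0 in Control (log2 difference -3.68, standard error 0.09). TAS14 had 4.60 and 6.05 TPM in Stress, against 14.3 and 14.6 in Control (log2 difference -1.40, standard error 0.12). The difference was -1.25 in ERF84, -1.07 in JA2 and -1.06 in MSRA. JA2 and MSRA lay near the threshold and came under it in 3 of 9 alternatives, among them those without Stress replicate 2 and without Control replicate 1 (smallest sizes -0.97 in JA2 and -0.93 in MSRA). Of the LOC genes, LOC101262661 had 2.26 and 2.54 TPM in Stress and 9.64 and 11.5 in Control (log2 difference -1.88, standard error 0.16), and LOC101247465 had a difference of -1.66. The higher members were LOC101250055, with 33.1 and 29.2 TPM in Stress and 9.42 and 7.90 in Control (log2 difference 1.66, standard error 0.12), LOC101267632 with a difference of 1.52, LOC112940884 with 1.27, and LOC101268293. WRKY45 had 8.14 and 11.3 TPM in Stress and 2.99 and 5.17 in Control (log2 difference 1.03, standard error 0.31), with more spread between libraries. With a pseudocount of 0.1 the counts were 7 and 23.

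The 2 differences can be set side by side as Combo minus Hardening less Stress minus Control, a contrast added after the data were seen and again a description. It was above 0 in 27 members and below 0 in 7 by the same thresholds, where 3.01% and 4.12% of all transcripts were, with a median of 0.25 beside -0.03. In 21 of the 27, the level was above Hardening in Combo and below Control in Stress. In 5 of the 7 it was below Hardening in Combo and above Control in Stress. LAPA1 had the largest value with 4.17 (standard error 0.13), followed by TAS14 with 2.79 (standard error 0.18). In LAPA1 it came with a Combo vs Hardening difference of 0.49 and a Stress vs Control difference of -3.68. PP2C-2 had 1.06 (standard error 0.10), with differences of 0.50 after hardening and -0.56 without it. JA2, ERF84, GRXS25 and MSRA had values of 1.13 to 1.48. Below 0 were LOC101250055 with -2.22 (standard error 0.17), LOC101243730 with -1.46 and ASR3 with -1.03 (standard error 0.16). ASR3, GRXS25, PP2C-2, LOC104645999, LOC101252884 and LOC101267632 came under the thresholds in 2 to 9 of 12 alternatives, among them fits without 1 Combo or Stress library.

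**Figure D5:**
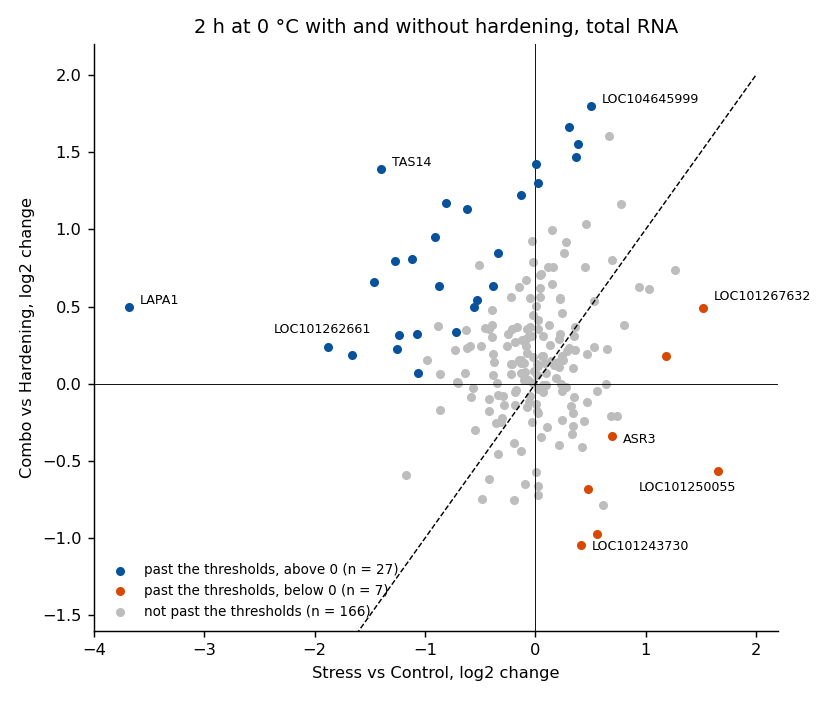
Change of each of the 200 members in total RNA after 2 h at 0 °C, for hardened plants (Combo vs Hardening, vertical axis) and unhardened plants (Stress vs Control, horizontal axis), as log2 of scaled TPM + 1; the dashed line marks equal changes. LAPA1 and TAS14 lie farthest above it among the 27 members past the thresholds, and LOC101250055 farthest below among the 7.

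Few members belonged to the pathway lists used, which hold genes by symbol only. TAS14 stood in the dehydrin and LEA list, GPXle-1 in the antioxidant list, HSP90 in the chaperone list, and LAPA1, CHI14 and CHI17 in the defence list. Between Combo and Control polysomes, 3 of 5 dehydrin and LEA transcripts tested rose and none fell, with a median of 2.50, where 22.1% of all transcripts were called higher and 17.1% lower. Besides TAS14 these were DHN (log2 change 2.50) and LE25, which scored high but was left out by the rule. TAS14 and LE25 were thus picked for their level in total RNA, and their rises in either fraction add no separate support. ER5 (-0.78) and LEA14 (0.47) were not called in polysomes. Of 14 chaperone transcripts tested 7 rose and 3 fell (median 1.22). HSP90 rose beside 3 transcripts of Hsc70 type, HSTF24, HSP17.4 and HSP21, while Hsp20.0 (log2 change -2.48), HSP17.8 and HSFA3 fell. In monosomes of the same conditions Hsp20.0 was instead called higher (log2 change 1.12). Of 22 antioxidant transcripts tested 5 rose and 6 fell (median -0.09), with GPXle-1 up and the catalase CAT2 down by 1.83. Of 11 defence transcripts tested 4 rose and 5 fell (median 0.41). Those that rose were the members LAPA1, CHI14 and CHI17, and CHI3, which scored high but was left out by the rule. This count of rises therefore rests on transcripts picked for their level in total RNA. The CBF and ICE list, upstream of many cold genes, held no member, and 3 of its 9 transcripts tested rose and 2 fell, CBF1 among them (log2 change -4.45). In monosomes, where 24.2% of all transcripts were called higher and 14.9% lower, 3 rose and 1 fell of 5 dehydrin and LEA transcripts, 8 and 2 of 14 chaperones, 6 and 4 of 22 antioxidant transcripts, 8 and 2 of 11 defence transcripts, and 1 and 3 of 7 in the CBF and ICE list.

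The other lists held no member. In polysomes of Combo against Control, where 22.1% of all transcripts were called higher and 17.1% lower, 1 of 3 tested galactinol and raffinose transcripts rose and none fell, 1 rose and 2 fell of 4 for starch and maltose, 3 and 2 of 13 for sucrose and sugar transport, 0 and 2 of 7 for proline and polyamines, 0 and 1 of 1 for lipid desaturation, 3 and 2 of 9 for flavonoids, 3 and 4 of 9 for light stress, 2 and 1 of 7 for abscisic acid, and 0 and 0 of 3 for RNA binding and ribosome biogenesis. Monosome calls of these lists differed in part and are not all given. In sugar transport, HT1 (log2 change 2.48) and TMT2 (1.73) were called higher in Combo monosomes but not in polysomes. AI and LIN8, lower in polysomes, were not called (AI, -0.57) or not tested (LIN8) in monosomes. These lists and their symbols cover only part of each pathway.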

How the data were processed

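Leaf RNA of 4 conditions was sequenced as total, polysome and monosome RNA, 2 libraries each. The authors deposited TPM per transcript, and the submitters' processing notes name bcl2fastq 2.20, kallisto and tomato build SL3.1. The edgeR fits of the study need counts, so the TPM were analysed on a log2 scale instead, using limma (version 3.58.1) and R (version 4.3.3).

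Members were taken from the deposited TPM by the score given above. Within each fraction, libraries were scaled by an unweighted trimmed mean of log ratios (30% of ratios and 5% of levels trimmed, values of at least 1 TPM), transcripts with a mean scaled TPM under 1 were left out, and log2(scaled TPM + 1) was fitted with all groups of the fraction. Fold changes on this scale understate those of low transcripts. A call needed a log2 change above 1 or below -1 and a Benjamini-Hochberg adjusted p under 0.05 over all transcripts. Within total RNA all differences of members are descriptions. The interaction was added after the data were seen.

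Members and lists were chosen with earlier results of these data known. Members named were, by rule, the 10 highest scores, the 5 highest levels, list members, the 3 largest changes each way and the edge of the score; members with a symbol were added after their values were seen. Names came from a RefSeq table of another assembly (SLM_r2.1) matched by accession, for 34881 identifiers, and its positions served only to find which genes neighbour each other. No sequences were used here. The procedure was tested on simulated data with equal numbers of raised and lowered transcripts. These data held no difference in library composition like that of the fractions, so they do not bear on the scaling. Alternatives were unscaled TPM, a pseudocount of 0.1, no filter, a replicate block, fits of only the groups compared, sums per gene and leaving out each library. Python 3.11.15, pandas 2.3.3 and matplotlib 3.10.9 were used for tables and plots.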

Additional observations from a re-analysis of the deposited data

Results flagged for a closer look

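In total RNA, 17 of the members named above passed the thresholds for a difference between the effect of 2 h at 0 °C in hardened and in unhardened plants (Combo minus Hardening, less Stress minus Control, on log2 values). The same libraries made the score that chose the members, so these values are a description and support no test of them. The difference was 4.17 in LAPA1, 2.79 in TAS14, 2.12 in LOC101262661, 1.93 in LOC101265833, 1.85 in LOC101247465, 1.48 in ERF84, 1.42 in GRXS25, 1.40 in JA2, 1.36 in LOC101252884, 1.30 in LOC104645999, 1.28 in LOC101254720, 1.13 in MSRA and 1.06 in PP2C-2. It was -2.22 in LOC101250055, -1.46 in LOC101243730, -1.03 in ASR3 and -1.02 in LOC101267632. Groups of 2 libraries are too small to look for a library that stands apart within its group.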

How the results depend on the processing

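The counts of members called higher in Combo than in Control stayed at 195 to 199 in polysomes and 182 to 196 in monosomes under other settings, and at 191 to 196 and 171 to 190 when 1 library was left out. No named member past the thresholds, in the main fit or in an alternative, changed direction between the 2. Changes of sign among differences that never passed the thresholds were not counted. Unscaled TPM moved the median change of all transcripts to 1.44 in polysomes and 1.57 in monosomes, and 61.0 and 62.0% of them were then called higher in Combo than in Control. Members called higher under the label Hardening in polysomes numbered 57 on unscaled TPM, 16 with a pseudocount of 0.1, 3 with no filter and 0 with only 2 groups. In monosomes they numbered 38, 33, 12 and 0 under the same settings, and those lower 0 on unscaled TPM and 0 with 2 groups. A pseudocount of 0.1 gave 2 members lower in Combo than in Hardening, 7 higher and 23 lower in Stress than in Control, 1 higher in polysomes than in monosomes of Combo, and 17 in Control. For polysomes against monosomes of Combo, unscaled TPM gave 5 and only 2 groups 0. In Control, only 2 groups gave 1 higher and 2 lower. With 1 library left out, the label Hardening gave 0 to 12 higher and 0 to 1 lower in polysomes and 1 to 25 higher and 0 to 7 lower in monosomes. It gave 12 to 14 higher and 0 to 2 lower for Combo vs Hardening, 3 to 5 higher and 9 to 12 lower for Stress vs Control, and 18 to 25 above and 3 to 6 below 0 for the interaction. Polysomes against monosomes then gave 0 to 0 in Combo and 10 to 15 higher and 15 to 23 lower in Control. The causes were not tested. TPM carry no read depth, and library depths were not used here, so limits set by depth were not assessed.

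Replicate numbers were shared between groups, with nothing in the labels on what they pair. Deviations of same-numbered libraries correlated at 0.221 to 0.284 in total RNA, -0.0366 to 0.032 in polysomes and -0.183 to 0.121 in monosomes. With a replicate block the counts were 196 in polysomes and 192 in monosomes for Combo vs Control, 3 and 11 for the label Hardening, 1 for polysomes against monosomes in Combo, and 29 and 7 for the interaction.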
